A study of Vitis vinifera with 72 samples.

Results

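Berries of Sangiovese and Cabernet Sauvignon, a pair of black grapevine cultivars, were compared at mid-ripening (MR) in Riccione on the Adriatic coast of Italy. The comparison held all 12 libraries of the series that carry that stage and area, of 72 in all: 6 Sangiovese libraries (3 each from 2011 and 2012) against 6 Cabernet Sauvignon libraries (3 each from 2011 and 2012). RNA came from the pericarp, which is the skin and flesh together, of vines grown in the field. Stage MR has the code 83 on the BBCH scale of plant development, and the pre-veraison stage (PV), used below as a contrast within Riccione, has the code 79. The series was designed to part genotype, environment and their interaction, and the 24 libraries of the same stage from Bolgheri and Montalcino in Tuscany serve below to ask where Riccione differs. Each group of cultivar, stage, area and year held 3 biological replicates. The labels give 1 area name per library and nothing on rootstock, clone or vineyard, so a cultivar difference cannot be told apart from a difference between the plots.

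Ripening berries colour when anthocyanins, the red and purple pigments, are made in the skin and moved into the vacuole. Flavonoid enzymes build the pigment core, hydroxylases set the number of hydroxyl groups on its B ring, and late enzymes attach glucose, methyl and acyl groups. MYBA transcription factors switch the late steps on. Sangiovese is known for wines of lighter colour and for few acylated pigments, whereas Cabernet Sauvignon berries carry mostly pigments with a trihydroxylated B ring.

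Values are FPKM, fragment counts scaled by transcript length and library size, as the authors deposited them. Differences are Sangiovese minus Cabernet Sauvignon on the log2(FPKM + 1) scale, averaged over both years unless a year is named, and the + 1 understates differences of low genes. A gene is called where its adjusted p (limma over 20443 tested genes, Benjamini-Hochberg, two-sided) is under 0.05. The gene IDs of the files could not be paired with names. Gene families below are lists of IDs recalled from published grapevine gene names, not checked against an annotation, and single members are described by their level and not by a name. Near-identical copies, as among the hydroxylases and stilbene synthases, share reads, and without strand information reads of overlapping genes cannot be told apart.

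Library totals ran from 931936 to 994074 FPKM, and relative depth, estimated from low values, from 0.879 to 1.17 times a typical library. Absolute depth is unknown. Replicates of a group correlated at 0.985 or more across genes, and no libraries were identical. At least 1 FPKM was reached by 16110.5 ± 41.9 genes in Sangiovese and 15706.3 ± 155.6 genes in Cabernet Sauvignon (SD, n = 6 each). The first principal component of the 12 libraries held 59.7% of the variance and separated the cultivars, and the second held 13.7% and separated the years. The labels name no sequencing batch, so season and batch cannot be told apart. Of 4 recalled colour genes used as markers of coloured skin, the most abundant stood at 298 to 421 FPKM at MR and 0 to 2.47 FPKM at PV in Sangiovese. In Cabernet Sauvignon it stood at 811 to 1631 FPKM at MR and 0.237 to 1.54 FPKM at PV. All 4 lay higher at MR than at PV in both cultivars without overlap. Between the cultivars at MR they did not move alike. One stood at 19.7 to 36.8 FPKM (median 22.4) in Sangiovese and 16.7 to 30.9 FPKM (median 22.8) in Cabernet Sauvignon. Another overlapped, at 52.0 to 95.1 FPKM against 74.7 to 159 FPKM, and the remaining one did not, at 21.6 to 33.9 FPKM against 52.7 to 135 FPKM. These genes also belong to the pigment lists below, so they are no independent measure of skin. In bulk pericarp, less skin and less RNA per skin cell cannot be told apart, and the share of skin was not recorded.

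Over all tested genes, 12192 differed between the cultivars (59.6%), 7780 higher (38.1%) and 4412 lower (21.6%) in Sangiovese. The difference exceeded 2-fold in 1814 of them (8.87%), with Sangiovese higher in 1184 (5.79%) and lower in 630 (3.08%). The surplus of higher genes depended on the scaling: 63.8% of called genes were higher without rescaling, 50.5% with median-of-ratios factors and 47.5% when quantiles were equalised. The median difference of all genes was 0.069, against 0.00027 and -0.014 under those scalings. Of the 161 tested list members, 33 were higher (20.5%) and 35 lower (21.7%), beside 38.1% and 21.6% of all genes. These 2 background shares, which also apply to the family counts below, moved with the scaling. With median-of-ratios factors 6204 of 20443 genes were higher and 6092 lower. Stilbene synthases made up 37 of the 161 members, with 0 higher and 3 lower, so the low share of higher members rests in part on that family. No called list member changed direction in the cultivar difference under either scaling or another pseudocount. The 6 Sangiovese libraries lay wholly above or wholly below the 6 Cabernet Sauvignon libraries for 6223 of all tested genes (30.4%), above for 3935 (19.2%) and below for 2288 (11.2%). Of the 161 list members they lay wholly above for 14 (8.7%) and wholly below for 18 (11.2%).

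**Figure D1:**
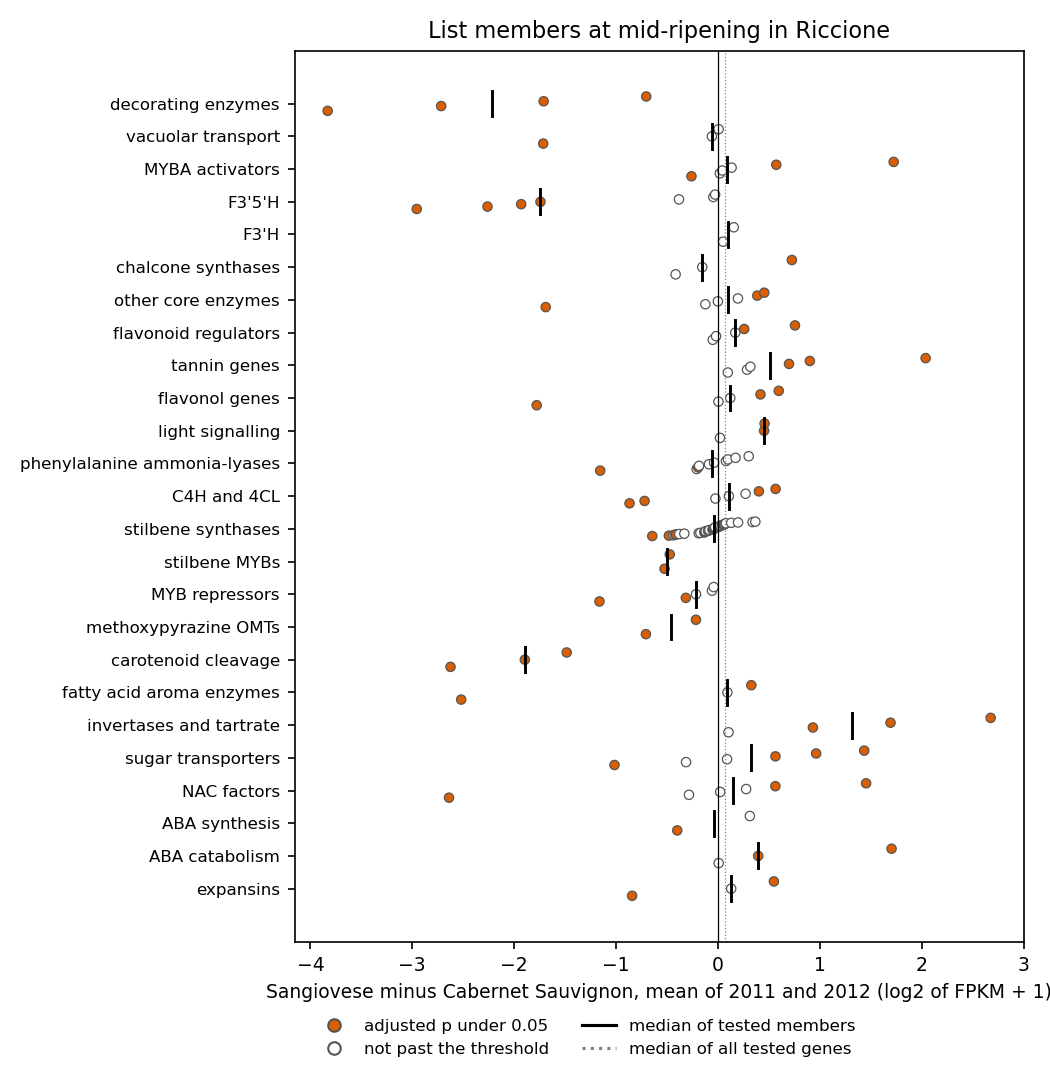
Each point is a tested list member, placed by its log2 difference, Sangiovese minus Cabernet Sauvignon at mid-ripening in Riccione. The 8 tested class IV chitinases, which hold the largest difference of all list members, and the 10 thaumatin-like proteins are not drawn. Filled points have an adjusted p under 0.05, black bars are family medians, and the dotted line is the median of all tested genes at 0.069. The decorating enzymes, F3'5'H copies and carotenoid cleavage enzymes lie to the left, with medians of -2.21, -1.74 and -1.90, and the invertases and tartrate genes lie to the right, with a median of 1.31.

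The late pigment steps were lower in Sangiovese. All 4 enzymes that attach glucose, methyl or acyl groups to anthocyanins were lower, with a median of -2.21 and a range of -3.83 to -0.70, where 21.6% of all genes were lower. They were lower in each year, 4 of 4 in 2011, where 17.3% of all genes were lower, and 4 of 4 in 2012, where 19.2% were. The enzyme with the largest difference had 2.42, 3.76 and 4.29 FPKM in Sangiovese in 2011 and 2.59, 2.61 and 2.74 FPKM in 2012. In Cabernet Sauvignon it had 54.7, 58.7 and 76.9 FPKM in 2011 and 37.5, 55.3 and 60.5 FPKM in 2012. Its groups stood far apart in both seasons, with a difference of -3.83 (SE 0.091, adjusted p = 2.8e-38). The least abundant of the 4 ranged from 0.0538 to 0.596 FPKM (median 0.435) in Sangiovese, against 4.77 to 11.5 FPKM (median 8.35) in Cabernet Sauvignon, a difference of -2.72. The other two were the most abundant in Cabernet Sauvignon and differed less. The first of them ranged from 21.6 to 33.9 FPKM (median 25.1) in Sangiovese, against 52.7 to 135 FPKM (median 87.8), a difference of -1.71. The second ranged from 52.0 to 95.1 FPKM (median 67.5) in Sangiovese, against 74.7 to 159 FPKM (median 114), a difference of -0.70. It alone of the 4 overlapped between the cultivars over both years, since all 3 Sangiovese libraries of 2011 lay above the lowest Cabernet Sauvignon library, replicate 3 of 2012.

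Of 3 members that carry anthocyanins into the vacuole, 1 was lower and the other two did not pass. The member that passed was the most abundant, at 298 to 421 FPKM (median 375) in Sangiovese and 811 to 1631 FPKM (median 1249) in Cabernet Sauvignon. Its difference was -1.72 (SE 0.23, adjusted p = 3.6e-09), and no library of one cultivar reached the range of the other. The next member had a median of 47.4 FPKM in Sangiovese and 50.2 FPKM in Cabernet Sauvignon, with overlapping ranges.

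The MYBA activators as a family stood near the background of all genes. Of 7 IDs 6 were tested, 2 were higher and 1 was lower, against 38.1% and 21.6% of all genes. Their median was 0.087, against 0.069 for all genes. One member stood at 69.96 to 101 FPKM (median 88.2) in Sangiovese, above every Cabernet Sauvignon library at 16.2 to 36.7 FPKM (median 26.7), with a difference of 1.72 (SE 0.15, adjusted p = 5.6e-15). The most abundant activator had 155 to 222 FPKM (median 184) in Sangiovese and 87.9 to 195 FPKM (median 112) in Cabernet Sauvignon. These ranges overlap, the difference was 0.57 (adjusted p = 0.0089), and it missed the threshold with a pseudocount of 0.1 (adjusted p = 0.36). The lower member was near 0 in both cultivars, at means of 0.261 FPKM in Sangiovese and 0.532 FPKM in Cabernet Sauvignon.

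**Figure D2:**
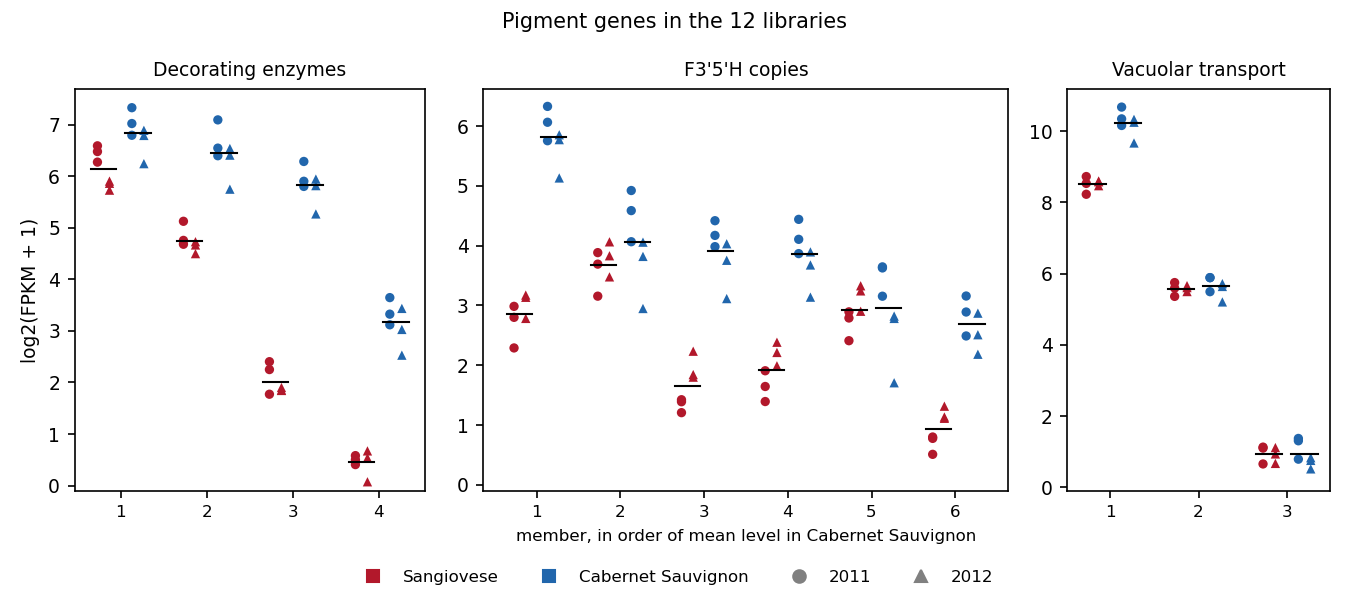
Levels in log2(FPKM + 1) of pigment genes in every library, Sangiovese in red to the left of Cabernet Sauvignon in blue, with circles for 2011, triangles for 2012 and bars for the mean of 6 libraries. Members are in order of their mean level in Cabernet Sauvignon, and 6 of 7 tested F3'5'H copies are drawn, the seventh lying under 0.1 FPKM in both. Decorating enzymes 2 to 4, F3'5'H copies 1, 3, 4 and 6 and the first transport gene show no overlap between the cultivars.

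The hydroxylases of the B ring differed in 1 branch. F3'5'H enzymes lead to trihydroxylated, bluer pigments and F3'H enzymes to dihydroxylated, redder ones. Of 14 F3'5'H IDs 7 were tested, and 4 of the 7 were lower in Sangiovese, 0 higher, with a median of -1.74. Of all genes 21.6% were lower and 38.1% higher. In all 4 copies the Sangiovese libraries lay wholly below the Cabernet Sauvignon libraries, against 11.2% of all genes. The most abundant copy had 3.89, 5.97 and 6.92 FPKM in Sangiovese in 2011 and 5.89, 7.80 and 8.02 FPKM in 2012. In Cabernet Sauvignon it had 53.0, 65.9 and 79.4 FPKM in 2011 and 34.1, 53.7 and 56.9 FPKM in 2012, a difference of -2.96 (SE 0.17, adjusted p = 3.5e-21). Of the other 3 tested copies, 1 was near 0 FPKM in both cultivars, and the second most abundant, at -0.38 (adjusted p = 0.085), passed with a pseudocount of 5 or either rescaling. The 7 IDs not tested stayed under 1 FPKM on average in both cultivars. Both F3'H members missed the threshold, with differences of 0.15 and 0.05, and their ranges overlapped.

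Summed over all F3'5'H IDs, the level was 19.9 to 41.6 FPKM (median 32.3) in Sangiovese and 62.2 to 169 FPKM (median 111) in Cabernet Sauvignon. Summed F3'H stood at 37.5 to 49.2 FPKM (median 42.8) in Sangiovese and 31.8 to 45.6 FPKM (median 39.05) in Cabernet Sauvignon, with overlap. The ratio of the sums was 0.491, 0.718 and 0.810 in Sangiovese in 2011 and 0.728, 0.796 and 0.902 in 2012. In Cabernet Sauvignon the ratio was 2.64, 3.16 and 3.71 in 2011 and 1.96, 2.85 and 3.19 in 2012. Every Sangiovese library therefore held less F3'5'H than F3'H transcript, and every Cabernet Sauvignon library held more.

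**Figure D3:**
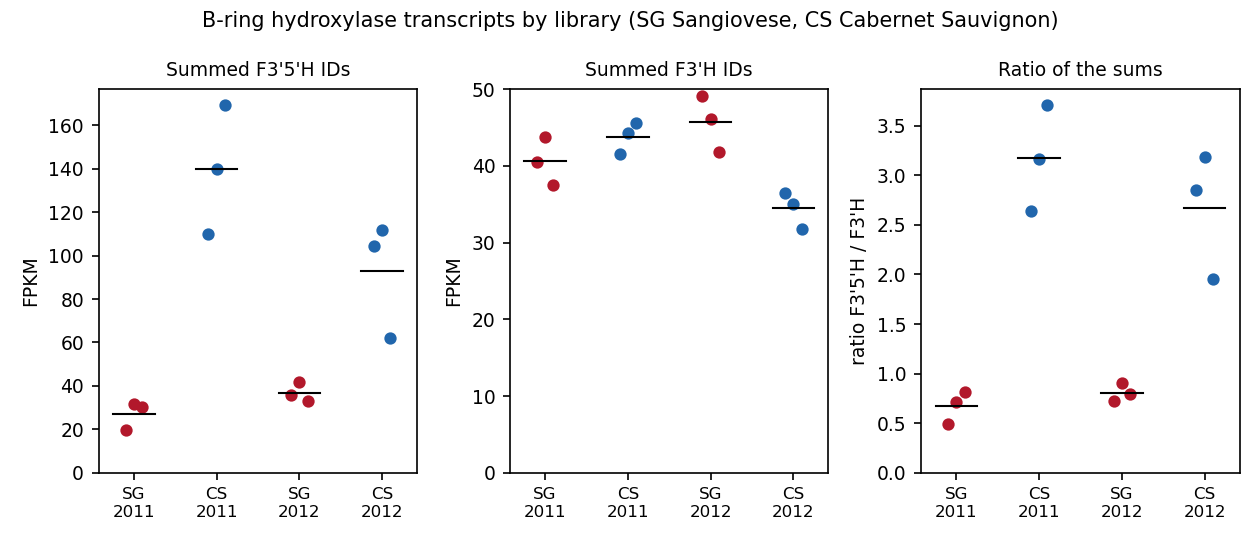
Summed FPKM of the 14 F3'5'H and the 2 F3'H IDs and the ratio of the sums, 1 point per library with a bar for the mean of 3, Sangiovese (SG) left of Cabernet Sauvignon (CS) in each year. The F3'H sums lie close together, while all 6 Sangiovese ratios lie under 0.91 and all 6 Cabernet Sauvignon ratios at 1.96 or above.

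The earlier steps shared by pigments and tannins moved in both directions. Chalcone synthases make the first flavonoid, and 1 of 3 was higher. That one was the least abundant, at 32.1 to 39.8 FPKM (median 34.9) in Sangiovese and 16.4 to 28.2 FPKM (median 20.6) in Cabernet Sauvignon. Of 6 other core enzymes 2 were higher and 1 lower, against 38.1% and 21.6% of all genes. The lower one ranged from 44.9 to 63.6 FPKM (median 53.1) in Sangiovese, against 136 to 223 FPKM (median 175) in Cabernet Sauvignon, a difference of -1.69 (SE 0.23, adjusted p = 1.1e-08). One of the higher ones, at 0.39, missed the threshold after median-of-ratios scaling (adjusted p = 0.085) and quantile normalization (adjusted p = 0.053).

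Tannin genes, which divert flavonoids to proanthocyanidins, had 3 of 6 higher and 0 lower, with a median of 0.51, against 38.1% of all genes higher. The largest difference belonged to a low gene at 2.01 to 8.68 FPKM (median 5.44) in Sangiovese, above all Cabernet Sauvignon libraries at 0.328 to 1.29 FPKM (median 0.362), a difference of 2.04 (SE 0.19). The next ranged from 7.23 to 16.5 FPKM (median 11.6) in Sangiovese, against 3.31 to 8.39 FPKM (median 5.54), a difference of 0.90. The remaining one, at 0.70, lost its call with a pseudocount of 5 (adjusted p = 0.29) and under quantile normalization (adjusted p = 0.066).

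Flavonol genes, which make the ultraviolet screens of the skin, had 2 of 5 higher and 1 lower, against 38.1% and 21.6% of all genes. The lower one was the most abundant in Cabernet Sauvignon, at 6.22 to 15.5 FPKM (median 8.41) in Sangiovese and 25.3 to 39.2 FPKM (median 34.9) in Cabernet Sauvignon, a difference of -1.78 (SE 0.22, adjusted p = 9.6e-10). Of 5 general MYB, bHLH and WD40 activators of flavonoids 2 were higher, by 0.76 and 0.26, and of 5 MYB repressors 2 were lower, by -1.16 and -0.32. Median-of-ratios scaling added 2 lower activators, and quantile normalization left 1 higher. Light signalling members, which link sunlight to flavonol synthesis, were higher in 2 of 3, by 0.45 and 0.46.

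Stilbene synthases make resveratrol. They stood low in Riccione, as they did at MR elsewhere except in Sangiovese in Bolgheri in 2012. Of 45 IDs 37 were tested, 0 were higher and 3 lower, and the median was -0.042. Their summed level was 2.05 to 32.1 FPKM (median 5.91) in Sangiovese and 4.91 to 45.98 FPKM (median 8.50) in Cabernet Sauvignon, with overlap. The 3 called members averaged 0.517, 0.276 and 0.109 FPKM in Sangiovese and 1.65, 0.975 and 0.655 FPKM in Cabernet Sauvignon. None stayed called with a pseudocount of 5. The count of lower members was 0 without replicate 1 of Sangiovese in 2011 (then with 3 higher) or without replicate 2 of Cabernet Sauvignon in 2011, and ran up to 5 without another library. Both MYB activators of stilbene synthesis were lower, by -0.52 and -0.47, and the second lost its call with a pseudocount of 5 (adjusted p = 0.12).

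Among the entry steps of the phenylpropanoid pathway, 2 of 10 tested phenylalanine ammonia-lyases were lower and 0 higher. The most abundant ranged from 26.2 to 37.6 FPKM (median 33.3) in Sangiovese, below all Cabernet Sauvignon libraries at 50.2 to 109 FPKM (median 74.1), a difference of -1.16 (SE 0.18). The other averaged 0.043 FPKM in Sangiovese and 0.205 FPKM in Cabernet Sauvignon. The 7 members of the following steps, cinnamate hydroxylases and coumarate ligases, had 2 higher and 2 lower, against 38.1% and 21.6% of all genes.

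All 3 carotenoid cleavage enzymes, which release norisoprenoid aroma compounds, were lower, by -2.63, -1.90 and -1.48, against 21.6% of all genes. The first ranged from 0.766 to 1.26 FPKM (median 1.04) in Sangiovese and 10.5 to 12.8 FPKM (median 11.6) in Cabernet Sauvignon. The second, the most abundant, had 5.78 to 9.57 FPKM (median 6.94) in Sangiovese and 20.2 to 45.5 FPKM (median 25.7) in Cabernet Sauvignon. The remaining one overlapped, because a single Sangiovese library of 2011 reached 15.5 FPKM while the lowest Cabernet Sauvignon library had 13.9 FPKM. Of 3 enzymes of fatty acid aroma, which form green-leaf compounds, 1 was lower and 1 higher. The lower one was abundant, at 189 to 474 FPKM (median 303) in Sangiovese and 1611 to 1889 FPKM (median 1758) in Cabernet Sauvignon, a difference of -2.52 (SE 0.15, adjusted p = 1.4e-20). Both methyltransferases of methoxypyrazines, the green pepper aroma of Cabernet Sauvignon, were lower but near 0. The more abundant had 0.114 to 0.882 FPKM (median 0.216) in Sangiovese and 0.549 to 1.65 FPKM (median 1.28) in Cabernet Sauvignon.

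Of 4 members that split sucrose or make tartaric acid, 3 were higher, against 38.1% of all genes. In each of these 3 the Sangiovese libraries lay wholly above the Cabernet Sauvignon libraries, against 19.2% of all genes. The member with the largest positive difference of all lists had 58.7, 74.0 and 96.7 FPKM in Sangiovese in 2011 and 66.4, 66.7 and 79.4 FPKM in 2012. In Cabernet Sauvignon it had 6.18, 7.41 and 8.42 FPKM in 2011 and 14.4, 14.9 and 16.0 FPKM in 2012, a difference of 2.68 (SE 0.15, adjusted p = 7.2e-22). The other two differed by 1.69 and 0.93. Of 6 tested sugar transporters 3 were higher and 1 lower, against 38.1% and 21.6% of all genes. One of the higher ones had 256 to 386 FPKM (median 313) in Sangiovese and 144 to 194 FPKM (median 157) in Cabernet Sauvignon, a difference of 0.96 (SE 0.074) without overlap.

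Among ripening regulators, 2 of 6 NAC transcription factors were higher and 1 lower, against 38.1% and 21.6% of all genes. The same shares stand beside the other counts of this paragraph, and none of these counts sets a family apart. The lower one had 3.98 to 10.7 FPKM (median 6.07) in Sangiovese and 38.1 to 55.0 FPKM (median 45.99) in Cabernet Sauvignon, a difference of -2.64 (SE 0.16, adjusted p = 2.4e-20). The higher one with the larger difference had 22.5 to 55.2 FPKM (median 45.2) in Sangiovese and 7.63 to 21.9 FPKM (median 15.4) in Cabernet Sauvignon, a difference of 1.45 (SE 0.21). Either rescaling called 1 further factor lower. Abscisic acid promotes ripening. Of 2 synthesis genes 1 was lower by -0.40, a call lost without replicate 2 or replicate 3 of Sangiovese in 2011. Of 3 tested catabolism genes 2 were higher, 1 of them at a mean of 0.561 FPKM in Sangiovese and 0.0346 FPKM in Cabernet Sauvignon. Of 3 expansins, which loosen cell walls, 1 was lower, and 1 was higher by 0.55 but not after median-of-ratios scaling (adjusted p = 0.067). Among defence proteins that accumulate in ripe berries, 8 tested class IV chitinases had 2 higher and 1 lower, which had the largest difference of all list members, and 10 thaumatin-like proteins had 3 higher and 1 lower.

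By the rule of largest differences, with all 3 libraries of a cultivar on the same side in both years, VIT_18s0089g00980 and VIT_13s0064g00350 led the genes higher in Sangiovese. VIT_18s0089g00980 had 87.2 to 205 FPKM (median 171) in Sangiovese, while every Cabernet Sauvignon library listed it at 0. VIT_13s0064g00350 had 98.9 to 231 FPKM (median 158) in Sangiovese and likewise 0 in each Cabernet Sauvignon library. A listed 0 can be a failed estimate, and replicates of a group ranged from 0 to 10 FPKM or more in 3 of 24 groups for VIT_18s0089g00980 and in 1 for VIT_13s0064g00350, so no fold is given. On the lower side, VIT_05s0094g00350 had 0.0344 to 2.84 FPKM (median 0.886) in Sangiovese and 1623 to 3604 FPKM (median 2404) in Cabernet Sauvignon, a difference of -10.36 (SE 0.50, adjusted p = 1.4e-24). This ID is also the list member with the largest difference, counted above, and not a further gene. VIT_04s0008g03700 stood at 0 in each Sangiovese library and had 226 to 450 FPKM (median 347) in Cabernet Sauvignon, and its replicates ranged this way within 1 group. In all, 36 genes stood at 1 FPKM or more in all 6 Sangiovese libraries and at 0 in all 6 Cabernet Sauvignon libraries, and 24 genes the other way round. Over all 36 MR libraries the same split held for 6 and 9 of them, and over all 72 libraries for 1 and 2. The rule asks for exactly 0, so a trace in 1 library ends the split. One gene that lost it reached at most 0.266 FPKM in Cabernet Sauvignon in the other areas at MR, against 59.5 to 78.1 FPKM in Sangiovese. VIT_13s0064g00350, which also lost it, reached 18.6 FPKM there in Cabernet Sauvignon, against 31.5 to 314 FPKM in Sangiovese.

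The seasons were compared next. In 2011, 9892 genes differed (48.4%), higher in 31.1% and lower in 17.3%, and in 2012, 10532 (51.5%), higher in 32.3% and lower in 19.2%. Both years called 7281 genes, 73.6% of the calls of 2011 and 69.1% of those of 2012, with the same sign in 7054 and the opposite sign in 227. Past 2-fold in both years were 1286 genes, of which 1262 kept their sign, 802 higher and 460 lower in Sangiovese. Across genes, the differences of the seasons correlated at Pearson's r = 0.78 and Spearman's rho = 0.71 (n = 20443 genes, which are not independent, with different libraries in each year).

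**Figure D4:**
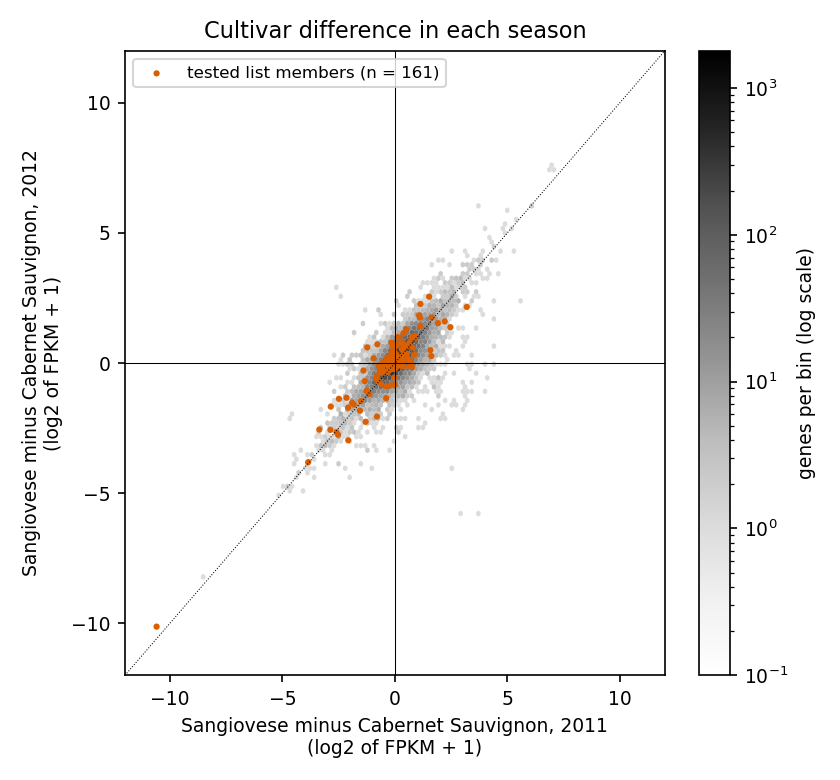
Log2 difference, Sangiovese minus Cabernet Sauvignon at mid-ripening in Riccione, in 2011 (horizontal) and 2012 (vertical), with shading for the number of genes per bin, orange points for the 161 tested list members and a dotted line where both are equal. Most genes with a large difference lie near the dotted line, in the lower left or the upper right.

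The difference between cultivars itself differed between 2012 and 2011 in 2761 genes (13.5%), 1487 more positive in 2012 (7.27%) and 1274 more negative (6.23%). Of the 161 tested list members 13 were more positive in 2012, a share near the 7.27% of all genes. More negative were 3, a share below the 6.23% of all genes. F3'5'H accounted for 5 of the 13: Sangiovese was further below Cabernet Sauvignon in 2011 (6 of 7 lower) than in 2012 (4 lower, 1 higher). One copy changed sides, at 4.32, 5.92 and 6.43 FPKM in Sangiovese against 7.9, 11.4 and 11.5 FPKM in Cabernet Sauvignon in 2011 (difference -0.78, adjusted p = 0.0013). In 2012 it had 6.48, 8.47 and 9.05 FPKM in Sangiovese against 2.27, 5.88 and 6.07 FPKM in Cabernet Sauvignon (0.72, adjusted p = 0.0026). General flavonoid activators gave 4 of the 13, with differences between the years (2012 minus 2011) from 0.47 to 0.75. The expansin that was lower overall was lower by -1.40 in 2011, but at -0.29 in 2012 it did not pass (test between years 1.11, adjusted p = 0.012).

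Of 6 sugar transporters, 2 had a more positive difference in 2012, 0 a more negative one, and the other 4 did not pass. The most abundant transporter had 117, 214 and 347 FPKM in Sangiovese in 2011, below Cabernet Sauvignon at 434, 440 and 590 FPKM. In 2012 it had 597, 638 and 647 FPKM in Sangiovese, above Cabernet Sauvignon at 360, 392 and 501 FPKM. The test between years gave 1.83 (SE 0.38, adjusted p = 0.00058), and the difference passed in 2011 (-1.23) but not in 2012 (0.60, adjusted p = 0.055). A second transporter had 425, 433 and 468 FPKM in Sangiovese against 202, 223 and 238 FPKM in Cabernet Sauvignon in 2012, while in 2011 both cultivars stood at 133 to 205 FPKM (test between years 0.87, adjusted p = 7e-05). An abscisic acid catabolism gene had 12.04, 15.3 and 15.8 FPKM in Sangiovese against 1.94, 2.14 and 2.45 FPKM in Cabernet Sauvignon in 2012. In 2011 it had 1.24, 1.35 and 2.1 FPKM in Sangiovese against 0.047, 0.2 and 0.223 FPKM in Cabernet Sauvignon. It was higher in Sangiovese in both years, and its test between years (1.13, adjusted p = 0.0059) depended on the pseudocount, with -0.08 (adjusted p = 0.95) at 0.1. The 3 more negative members were 2 fatty acid aroma enzymes and the sucrose or tartrate member described above (-1.04, adjusted p = 0.015). No decorating enzyme, carotenoid cleavage enzyme or tannin gene passed the test between years.

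Riccione was then set against Bolgheri and Montalcino at the same stage. The cultivar difference differed from the mean of the other areas in 4797 genes (23.5%), 2309 more positive (11.3%) and 2488 more negative (12.2%) in Riccione. Of the 161 tested list members 21 were more positive, a share near the 11.3% of all genes. More negative were 38, a share above the 12.2% of all genes, and 25 of the 38 were stilbene synthases. Those 25 rested on Bolgheri in 2012: without it, a choice made after the data were seen, 0 of 37 differed between Riccione and the rest, and their median was -0.014, against -0.54 with it. Without Montalcino in 2011 the count was 8, and without Bolgheri in 2011 it was 35. In Bolgheri in 2012 all 37 tested stilbene synthases were higher in Sangiovese, where 58.8% of all genes were called in either direction. Their summed levels there were 212 ± 90.1 FPKM in Sangiovese and 2.96 ± 1.56 FPKM in Cabernet Sauvignon (SD, n = 3 each). In Riccione the sums were 15.6 ± 15.2 FPKM against 21.0 ± 21.6 FPKM in 2011, and 4.83 ± 2.57 FPKM against 8.11 ± 4.96 FPKM in 2012 (SD, n = 3 each, Sangiovese against Cabernet Sauvignon). A stilbene synthase could also pass the filter on low values through Bolgheri in 2012 alone, where Sangiovese was high. The filter therefore favoured the count of 37 of 37 there and the 25 above, and no conclusion is drawn from these counts. The 58.8% is for both directions together and is no matching share for genes higher. Over all genes the count was 3066 without Bolgheri in 2012 and 7172 without Bolgheri in 2011. Of the 4797 genes, 2233 were among the 3066 and 4303 among the 7172.

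The most abundant carotenoid cleavage enzyme differed in Riccione by -1.90 but in the other areas by -0.06 (adjusted p = 0.64), and the test between areas gave -1.83 (SE 0.19, adjusted p = 1e-09). The other two cleavage enzymes did not differ between areas by this test. Among sugar and acid genes, 3 of the 4 members of sucrose splitting and tartaric acid synthesis had a more positive difference in Riccione. The largest was 2.68 in Riccione against 1.55 elsewhere (test between areas 1.12, adjusted p = 7.8e-06). The count of 3 was 1 without Bolgheri in 2012 and 2 without either season of Montalcino, with another pseudocount or under quantile normalization. The MYBA activator with the largest difference was higher by 1.72 in Riccione and by 1.01 elsewhere (test between areas 0.71, adjusted p = 0.0024). It was 1 of 2 activators more positive in Riccione, and 0 were with a pseudocount of 0.1 or without Montalcino in 2012. A light signalling member was higher in Sangiovese in Riccione (0.45) and lower elsewhere (-0.18), with a test between areas of 0.63 (adjusted p = 2.4e-05). Another of the 3 went the other way, at 0.019 (adjusted p = 0.77) in Riccione and 0.41 elsewhere (test between areas -0.39, adjusted p = 7e-07), a call lost without Bolgheri in 2012. In the 6 combinations of area and year, 48.4% to 58.8% of all genes were called in either direction. Lower genes made up 17.3% in Riccione in 2011 and 19.2% in 2012. Decorating enzymes were lower in Sangiovese in all 6 combinations, 4 of 4 in each. In 2 of the 4 the difference was less negative in Riccione than elsewhere, by 0.43 and 0.30, but in 0 with a pseudocount of 0.1, and in 1 without Bolgheri in 2012 or Montalcino in 2011. Neither decorating enzymes nor F3'5'H had a member more negative in Riccione. Both F3'H members did, by -0.41 (adjusted p = 0.01) and -0.27 (adjusted p = 0.036): they were higher in Sangiovese elsewhere, by 0.57 and 0.32, and did not pass in Riccione. Neither F3'H call held without Bolgheri in 2012 or without Montalcino in 2011.

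**Figure D5:**
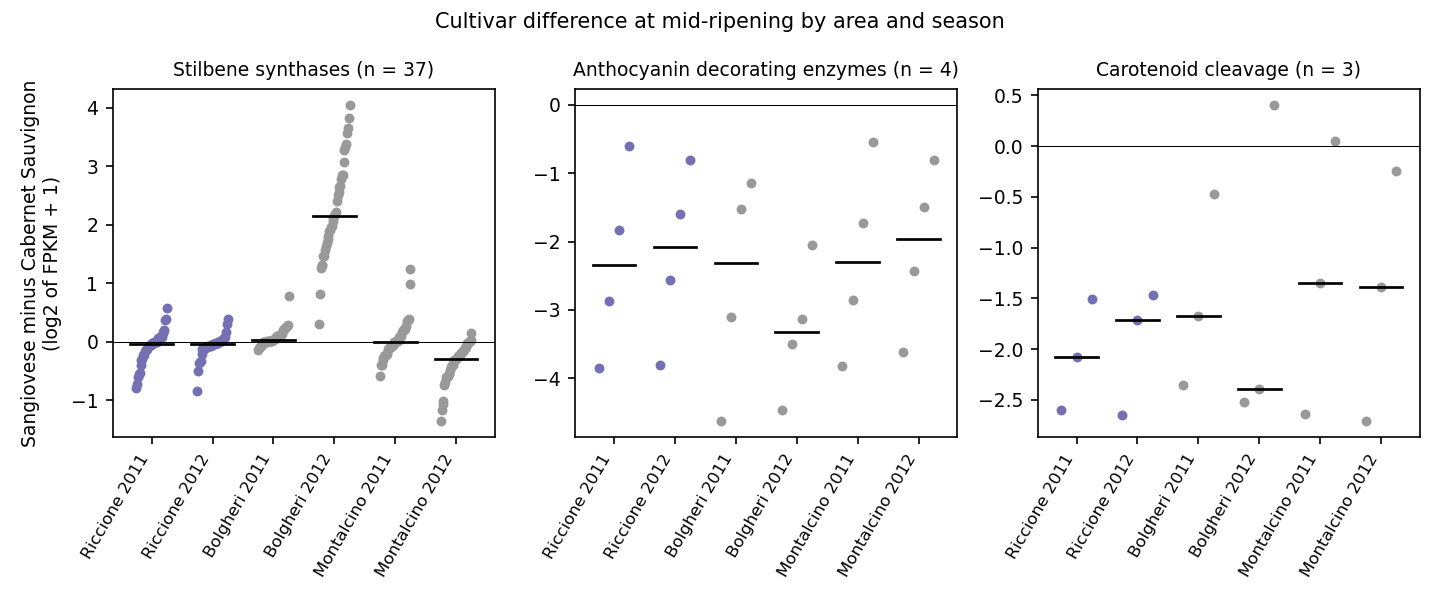
Log2 difference, Sangiovese minus Cabernet Sauvignon at mid-ripening, in each area and season for the members of 3 families, with Riccione in purple, the other areas in grey and bars for the median. Stilbene synthases lie around 0 in Riccione (medians -0.032 and -0.047) and far above 0 in Bolgheri in 2012 (median 2.15). Decorating enzymes lie below 0 in all 6 environments.

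Finally, the cultivars were compared between stages within Riccione. The difference at MR differed from that at PV in 10629 genes (52%), 6591 more positive (32.2%) and 4038 more negative (19.8%) at MR. Median-of-ratios scaling left 50.1% of these more positive, against 62.01% without rescaling, and quantile normalization 45.1%. All 4 decorating enzymes were more negative at MR, with a median of -1.77 for MR minus PV, and 3 of 4 were lower at PV too (median -0.44). At PV 58.4% of all genes differed, 30.2% higher and 28.2% lower. With a pseudocount of 0.1, 3 of the 4 were more negative at MR. More negative at MR were also 6 of 7 F3'5'H copies and all 3 carotenoid cleavage enzymes (2 with a pseudocount of 0.1 or 5). The seventh F3'5'H copy was more positive at MR (0.71, adjusted p = 6.3e-13), being lower in Sangiovese at PV (-0.76) and near 0 FPKM in both cultivars at MR. More positive were 4 of 6 MYBA activators, but 2 with a pseudocount of 0.1. Both cultivars were near 0 for the colour genes at PV, so differences there lie among low values.

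Some members turned round between the stages. The most abundant carotenoid cleavage enzyme was higher in Sangiovese at PV (1.15) and lower at MR (-1.90). An expansin was higher at PV (2.56) and lower at MR (-0.84), where it had 383 to 669 FPKM (median 492) in Sangiovese and 530 to 1306 FPKM (median 980) in Cabernet Sauvignon. The NAC factor that was lower at MR was higher at PV (0.71), and the one that was higher at MR (1.45) was lower at PV (-0.92). The member with the largest sugar and acid difference did not pass at PV (-0.31). Of the 6 tannin genes, 4 were higher at PV and 3 at MR, and the difference changed between stages in 1.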

How the data were processed

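RNA of berry pericarp was measured by RNA sequencing from non-directional TruSeq libraries, per the labels' protocols. The authors deposited FPKM values, 1 column per library for 29971 gene IDs. Per the submitters' processing notes, the tools were TopHat2 2.0.9, Cufflinks 2.1.1 and CASAVA 1.8.2. Build, annotation and options: not given in the sources used here. FPKM keeps no read counts, so depth is unknown and no count test was run. Low values were whole multiples (within 0.1) of a fitted step, taken as 1 read, in 83.1% of cases. The steps and the relative depths were fitted to these same values, so this share is no independent check of them.

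Genes with a mean of at least 1 FPKM in at least 1 of the 24 groups (20443) were tested as log2(FPKM + 1) with limma 3.58.1 in R 4.3.3 (files read with the data.table package, version 1.17.8; figures drawn with python 3.11.15 and matplotlib 3.10.9). The fit held 24 group means over all 72 libraries, with 48 residual degrees of freedom and moderated variances with a trend. The contrasts were the cultivar difference averaged over 2011 and 2012, each year, and its differences between years, areas and stages, two-sided, adjusted by Benjamini-Hochberg at 0.05. The steps were run on simulated data with independent normal noise around the group means. Such noise does not reproduce replicates that switch between 0 and high values, so calls on switching IDs were not tested by it. Biological triplicates are stated by the series; the replicate numbers here are names in accession order. The members and lists were chosen with earlier results of these data known. The RefSeq list of 29591 genes matched 0 IDs. Of 191 recalled IDs, 190 had FPKM values and 161 passed the filter. Single IDs were named by the largest difference each way among genes past the threshold with at least 10 FPKM on the higher side (for differences between years, areas or stages, in a Riccione group at MR). For the cultivar difference the 3 libraries of each cultivar also had to stay apart on the same side in both years. At most 2 IDs are printed each way. Alternatives were pseudocounts of 0.1 and 5, no filter or 5 FPKM, median-of-ratios and quantile scaling, robust variances, the 12 libraries alone with year as a block, a log2 difference of at least 1, and leaving out each library. Leaving out genes switching between 0 and 10 FPKM within a group, or seasons of other areas, was added after seeing the data.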

Additional observations from a re-analysis of the deposited data

Results flagged for a closer look

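The cultivar difference itself differed by limma's test between 2012 and 2011 in 2761 genes, between Riccione and the other areas in 4797 genes, and between MR and PV in 10629 genes. The named IDs below passed the same tests with the largest values on the log2(FPKM + 1) scale.

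Between the years, VIT_17s0000g04240 had 5.48 and VIT_05s0051g00370 had 4.92 (2012 minus 2011), and VIT_11s0016g03730 had -9.39 and VIT_13s0067g03340 had -8.64. Each of these 4 IDs switched between 0 and at least 10 FPKM among replicates of a group, in 6, 3, 4 and 7 of the 24 groups.

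Between the areas, VIT_08s0007g05850 had 3.25 and VIT_19s0085g01050 had 2.85 (Riccione minus the others), and VIT_05s0049g00520 had -7.86 and VIT_14s0006g02100 had -3.36. VIT_19s0085g01050 did not switch: it averaged 185 ± 129 FPKM in Sangiovese and 16.4 ± 22.6 FPKM in Cabernet Sauvignon in Riccione in 2011, and 43.4 ± 26.4 FPKM in Sangiovese and 429 ± 208 FPKM in Cabernet Sauvignon in Bolgheri in 2011 (SD, n = 3 each). In Riccione in 2012 it averaged 3.36 ± 0.801 FPKM in Sangiovese and 9.92 ± 9.16 FPKM in Cabernet Sauvignon (SD, n = 3 each), so its positive value in Riccione rests on 2011: the difference was 4.02 in 2011 and -1.0 in 2012 (limma adjusted p = 0.23), and the test between years gave -5.02 (limma adjusted p = 0.00023). VIT_05s0049g00520 stood at 41698 to 51927 FPKM in Sangiovese and 46780 to 61273 FPKM in Cabernet Sauvignon in Riccione, but was listed at 0 in at least 1 Cabernet Sauvignon library of every Bolgheri and Montalcino group at MR. VIT_08s0007g05850 switched in 7 groups and VIT_14s0006g02100 in 4.

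Between the stages, VIT_00s0324g00050 had 5.43 and VIT_06s0004g07550 had 4.87 (MR minus PV), and VIT_05s0094g00350 had -9.18 and VIT_03s0038g02790 had -5.60. At MR, VIT_00s0324g00050 stood at 68.7 to 125 FPKM in Sangiovese and 0.358 to 3.59 FPKM in Cabernet Sauvignon, and VIT_06s0004g07550 at 22.5 to 56.7 FPKM in Sangiovese and 0.0731 to 1.41 FPKM in Cabernet Sauvignon, without switching in any group. VIT_03s0038g02790 switched in 10 groups. The part of failed estimates in the values of switching IDs was not tested.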

How the results depend on the processing

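A required log2 difference of at least 1 left 1814 genes in the cultivar difference, and the area contrast gave 3066 genes without Bolgheri in 2012. Of those 3066, 2233 were also called in the main area contrast. Leaving out 1 library gave 11748 to 11908 genes for the cultivar difference, 8915 to 9873 in 2011, 9434 to 10589 in 2012, 1880 to 2744 between years, 4124 to 4828 between areas and 10276 to 10484 between stages. Every other alternative run left these 6 counts within 1.5 times. The 12 libraries alone with year as a block gave 10720, and without switching IDs the cultivar difference gave 12183. Of 68 called list members, the cultivar difference lost 2 with a pseudocount of 0.1, 11 with 5, 3 with median-of-ratios factors and 6 with equalised quantiles, and none changed sign. In the same order it gained 9, 2, 8 and 12. The other contrasts were less stable with a pseudocount of 0.1. The area contrast then lost 21 of 59 called members, the stage contrast 15 of 75 and the year contrast 2 of 16. In the stage and the year contrast 1 called member each changed sign. The named IDs passed in 283 of 329 settings and missed the threshold in 46, all for 6 IDs of the year and area contrasts, with no change of sign. List counts moved by over 1.5 times in 85 of 1080 settings. No paired analysis was possible because the labels give no replicate numbers. Without read depth, no difference among low values has a counting limit.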
